A study of Mus musculus with 31 samples.

Results

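BRG1 sites of the active X chromosome that lie inside genes are described here. BRG1, encoded by Smarca4, is the ATPase that drives the SWI/SNF chromatin remodeler, and the authors deposited lists of X-linked BRG1 sites in 3 classes named Monoallelic, Biallelic and XiRestored. A Monoallelic site, taken here as a site of the active X only, was counted as lying inside a gene when it shared at least 1 base with the span of an X-linked gene of the deposited exon table. This gave 455 sites of the 887 in the Monoallelic class (51.3%) and of 1136 classed BRG1 sites in all. The class was set by the BRG1 reads and the membership by position, so neither is a result. The 455 sites fell in 139 genes, called host genes here, of 1058 gene symbols on the X.

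The cells were female mouse dermal fibroblasts from a hybrid of CAST/Ei (cas) and 129/Sv/Jae (mus), so that a read over a differing base can be assigned to a parental X. Wild-type (WT) cells were compared with line 1 (XaWT Xi[delta]Xist) and line 2 (XaWT Xi[delta]Xist #2), in which Xist was deleted from the inactive X after X inactivation had taken place, while Xist on the active X was wild type. None of these groups had a further treatment. The labels tie the BRG1 lists to 2 ChIP libraries each of WT and line 1, and RNA-seq covers 2 libraries each of WT, line 1 and line 2, from 31 samples in all. Each deleted line is 1 cell line, and nothing in the labels says that its libraries came from separate cultures, so p-values measure only the spread between these libraries. The site lists carry no score and no value per library.

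In female mammals 1 X chromosome is silenced, and the long noncoding RNA Xist coats that chromosome and recruits silencing factors. SWI/SNF uses ATP to slide and evict nucleosomes, and BRG1 is found at promoters and at distal enhancers, many of which lie in introns. In fibroblasts SWI/SNF works together with AP-1, a transcription factor bound at many enhancers of these cells. A site can be placed on a parental X only where the parents differ in sequence, and the density of such differences was not analysed here.

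The sequences that could be read lie just upstream of transcription starts covered or flanked by a site. RefSeq promoter windows on GRCm38.p6, the assembly of mm10, hold 250 bases before and 50 bases after a start, and of 1223 such windows on the X only 6 overlapped a site. The 455 sites cover 350414 bases in all, so few windows could overlap them, and this count does not show whether they avoid starts. Of the 6 windows 5 are printed, leaving out 1 predicted gene. Capitals mark matches to 5 motifs searched on both strands: AP-1 (TGANTCA), TEAD (GGAATG), the GC box (GGGCGG), the CCAAT box (CCAAT) and the TATA box (TATAAA). The stretch of Il13ra2, a decoy receptor of interleukin 13, is chrX:147429193-147429442 on the minus strand and lies wholly inside a site of 1448 bases. Vegfd, a growth factor of lymphatic vessels, has chrX:164373459-164373521 on the plus strand, at the edge of a site of 567 bases that contains its start. An internal start of Sh3kbp1, the gene with the most sites, lies 104 bases past a site of 2619 bases and gives chrX:159840218-159840364 on the plus strand. The window of Iqsec2, which encodes a synaptic exchange factor, gives chrX:152178759-152178845 on the plus strand. That of Timp1, a metalloproteinase inhibitor, gives chrX:20869916-20869965 on the plus strand, inside a site of Syn1. The Timp1 start lies within the span of Syn1, a gene of the minus strand.
Il13ra2: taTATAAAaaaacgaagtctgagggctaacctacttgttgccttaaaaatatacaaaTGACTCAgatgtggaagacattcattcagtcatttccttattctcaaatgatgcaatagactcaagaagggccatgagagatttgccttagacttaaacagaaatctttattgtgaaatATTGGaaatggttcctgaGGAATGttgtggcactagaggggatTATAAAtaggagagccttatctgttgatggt
Vegfd: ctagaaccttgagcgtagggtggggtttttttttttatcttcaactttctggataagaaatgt
Sh3kbp1: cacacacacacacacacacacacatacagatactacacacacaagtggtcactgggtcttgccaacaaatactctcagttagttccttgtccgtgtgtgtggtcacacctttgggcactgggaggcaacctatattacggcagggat
Iqsec2: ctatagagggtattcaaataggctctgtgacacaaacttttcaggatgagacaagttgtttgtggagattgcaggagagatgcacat
Timp1: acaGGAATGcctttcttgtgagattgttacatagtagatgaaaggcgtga

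The Il13ra2 stretch holds AP-1, TEAD, CCAAT and TATA letters, the last of these at 2 places, and had a GC content of 36.0%. Of all 300-base promoter windows on the X, 7.85% hold the AP-1 letters, 15.6% the TEAD letters, 45.0% the CCAAT box and 14.6% the TATA box. No pair of these motifs shares a base in the stretches printed. The Vegfd, Sh3kbp1 and Iqsec2 stretches hold none of the 5, which says only that these letters are absent from these bases. A match is a description of the letters and not of binding.

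The sites were concentrated in a small number of long genes. Sh3kbp1, an adaptor of receptor endocytosis that also binds the cytoskeleton, held 50 sites (11% of 455). Arhgap6, which remodels actin, held 26 sites, and Ammecr1, a nuclear protein deleted in a human contiguous gene syndrome, held 22. Gpc3, a heparan sulphate proteoglycan of the cell surface, held 16. Phex, a membrane peptidase of phosphate balance, held 12, Lancl3 held 11, and the chloride-proton exchanger Clcn5 held 10. The 3 genes with most sites held 98 sites (21.5%), while 65 host genes held 1 site each. In all, 44 host genes held 2 to 4 sites, and the 30 with 5 or more held 282 sites. A single site overlapped 1 symbol in 442 cases and several in 13.

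**Figure D1:**
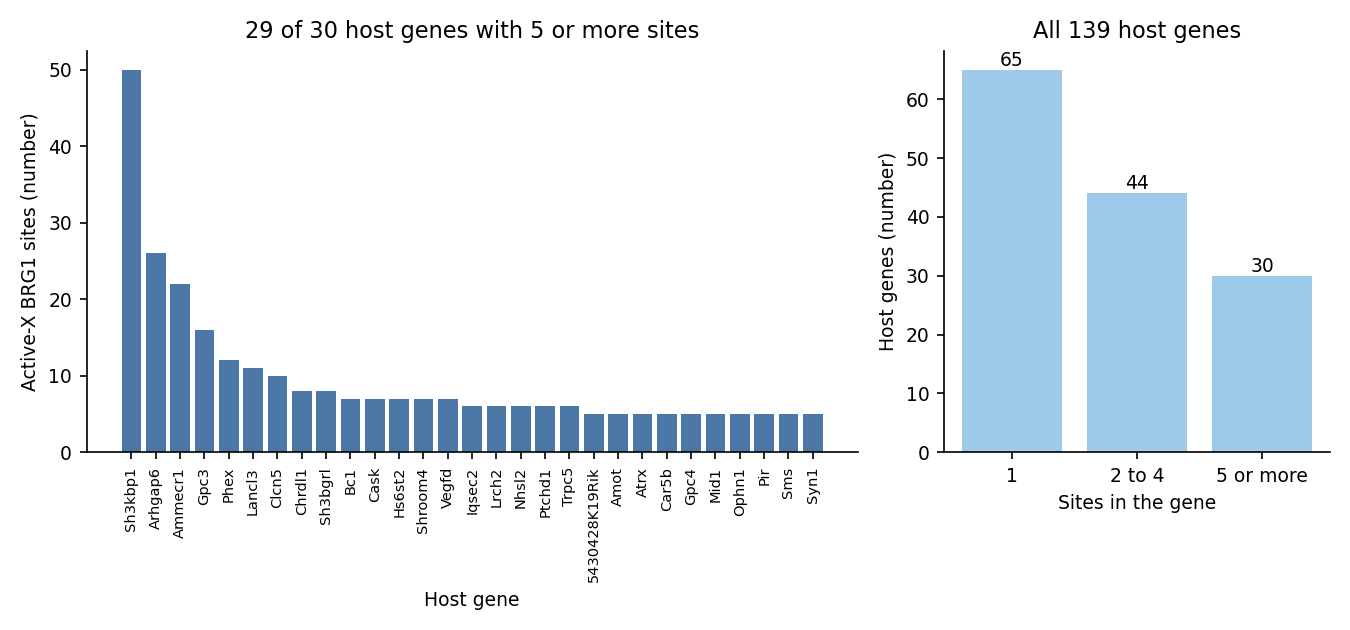
Number of active-X BRG1 sites in each of 29 of the 30 host genes with 5 or more sites (left) and number of host genes by how many sites they hold (right). Sh3kbp1, with 50 sites, stands above Arhgap6 with 26 and Ammecr1 with 22, and 65 of 139 host genes hold 1 site.

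Host genes were longer than other X genes, which the rule favours because a long gene offers more bases to overlap. Their median span was 59.2 kb, against 8.43 kb for the other 919 symbols. Among X genes with enough RNA to be tested, 40 of 73 with a span over 100 kb were host genes (54.8%). The share was 46 of 156 (29.5%) for spans of 20 to 100 kb and 25 of 186 (13.4%) for shorter genes. Per base, gene-covered X held 10.5 of these sites per Mb, and the remaining X held 3.47 Monoallelic sites per Mb between the outermost genes. Genes cover 25.8% of that stretch of the chromosome and hold 51.3% of the Monoallelic sites.

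The sites had a median length of 613 bases, with a range of 109 to 3131 bases. Monoallelic sites between genes had a median of 532.5 bases, and XiRestored sites inside genes a median of 994 bases. The smallest overlaps with a gene that counted were 109 bases in Dlg3 and 112 bases in Sh3kbp1, each the whole site, and the nearest sites left out lay 118 bases from Tsr2 and 137 bases from Maged2. Along the chromosome 154 sites lay between 140 and 160 Mb and 83 beyond 160 Mb, where Sh3kbp1, Ammecr1, Phex and Arhgap6 are found, while 7 lay between 120 and 140 Mb. Of the sites between genes, 83, 81 and 36 lay in these same bins.

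Part of the sites inside host genes came in runs. With neighbours under 10 kb apart joined, the 455 sites formed 205 runs, of which 118 were single sites. The 24 runs of 5 or more sites held 179 sites (39.3%), against 11.6% of the Monoallelic sites between genes in such runs. Sites inside genes were also denser (10.5 against 3.47 per Mb), and the part of density in these runs was not tested. In Sh3kbp1 (chrX:159627272-159975920, plus strand) the longest run held 21 sites within 40.2 kb, between 60.7% and 71.8% of the way along the gene, and sites covered 49.7% of it. A further run of Sh3kbp1 held 11 sites within 30.1 kb, at 23.2% to 31.7% of the gene. In Ammecr1 (chrX:142853474-142966728, minus strand) 16 sites lay within 49.0 kb, and 6 more lay within 14.7 kb nearer the start. All 11 sites of Lancl3 (chrX:9199973-9268085, plus strand) lay within 23.1 kb, at 2.23% to 35.7% of the gene. The 16 sites of Gpc3 (chrX:52272427-52613974, minus strand) lay in the last part of the gene, with runs of 9 and 5 and a pair starting at 72.8% of its length. In Phex (chrX:157162075-157415286, minus strand) a run of 6 sites covered 78.3% of 9.15 kb. A run of 10 sites in 30.3 kb reached from the end of Pir into the neighbouring Vegfd. Because neighbours within a run may belong to 1 broad domain, sites of a gene are not independent of each other.

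**Figure D2:**
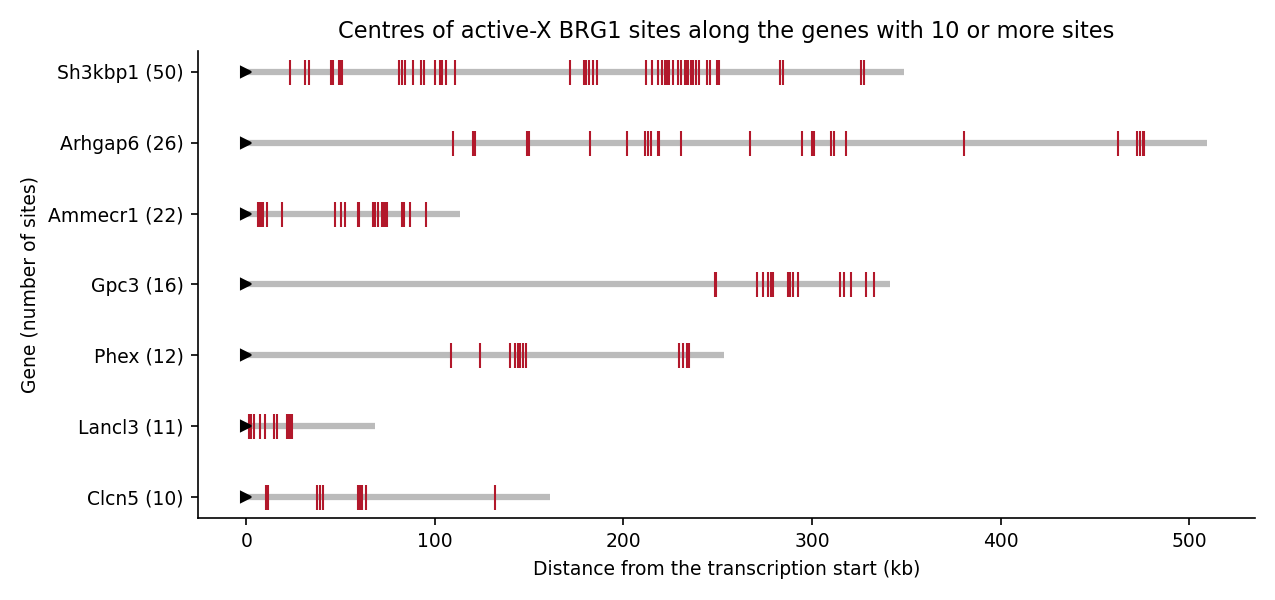
Centres of the sites (red ticks) along the 7 genes with 10 or more sites, as distance in kb from the transcription start (black arrowhead); grey bars show each gene's span. Sites are clustered in each gene, with 21 of 50 in 1 run of Sh3kbp1 and all 16 of Gpc3 in the last part of the gene.

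Few of the sites lay at the start of a gene. A start of the host gene lay inside 5 of 455 sites (1.10%), and 20 further sites lay within 1 kb of one. These are the starts of Stag2, a cohesin subunit, of Snora70, a small nucleolar RNA inside the ribosomal protein gene Rpl10, of Il13ra2, of Vegfd and of Tlr7, a sensor of single-stranded RNA. The median distance to the host start was 29.3 kb. There were 93 sites at 1 to 10 kb, 172 at 10 to 50 kb and 162 beyond 50 kb, of 452 in genes listed at a single place. Counting the start of any gene, 36 sites (7.91%) lay within 1 kb, compared with 36 of 432 Monoallelic sites between genes (8.33%), 3 of 32 Biallelic sites inside genes (9.38%) and 7 of 93 XiRestored sites inside genes (7.53%). Of 447 sites with a position and no start in them, 108 had their centre in the first 20% of the gene and 70 in the last 20%. Between these, successive stretches of 20% held 103, 88 and 78 sites. The end of a host gene lay inside 12 sites.

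**Figure D3:**
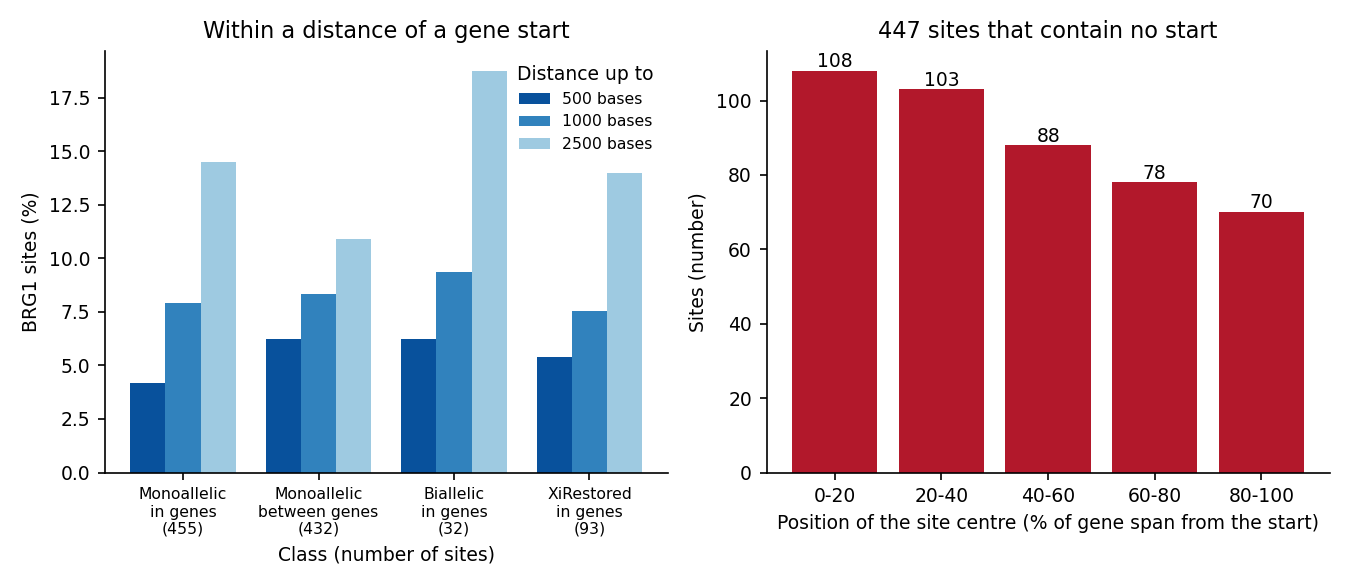
Share of BRG1 sites within 500, 1000 or 2500 bases of a gene start in 4 sets of sites (left), and position of 447 sites along their host gene as a percentage of its span (right). Within 1000 bases the shares are 7.91%, 8.33%, 9.38% and 7.53%, and 108 sites lie in the first 20% of the gene and 70 in the last 20%.

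Accessible sites of the active X were listed as well. The authors' Monoallelic accessibility list, from ATAC-seq, which cuts open chromatin, has 234 sites inside genes, and 142 of them (60.7%) contain a gene start, against the 5 of 455 BRG1 sites. Only 32 of the BRG1 sites inside genes (7.03%) shared a base with a Monoallelic accessible site, compared with 57 of the 432 between genes (13.2%). A further 71 lay within 1 kb of one without touching it, so that 103 (22.6%) were within 1 kb. None of the 32 contained a host start, and 30 had no gene start within 1 kb. In the other direction, 71 of the 234 accessible sites inside genes (30.3%) lay within 1 kb of a BRG1 site described here. No BRG1 site of the 455 overlapped a Biallelic or an XiRestored accessible site. Per the labels, these accessibility lists draw on WT embryonic fibroblasts as well as WT and line 1, and the part of the embryonic cells in these overlaps was not tested. At the gene level, 86 of 139 host genes (61.9%) held a Monoallelic accessible site somewhere in their span, as did 119 of the 919 other X genes (12.9%), which were shorter.

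Few host genes also held a BRG1 site of the XiRestored class, whose name refers to the inactive X. Such a site was found in 5 host genes (3.60%) and in 28 other X genes (3.05%). Mid1, a microtubule-associated ubiquitin ligase, held 8 XiRestored sites beside its 5 active-X sites, which lay in the first 11.8% of the gene. Col4a6, a basement membrane collagen, held 7 beside its 1 active-X site. Acsl4, an acyl-CoA synthetase, held 3, and the proteoglycan gene Bgn and Gucy2f held 1 each. Only 4 of the 455 sites lay within 10 kb of an XiRestored BRG1 site, and 1 lay within 10 kb of a Biallelic one. Kdm6a, a histone demethylase gene, was the 1 host gene that held BRG1 sites of the Biallelic class, 10 in all, and 11 of the 919 other X genes (1.20%) held such sites.

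RNA was then compared across the host genes, a readout that the choice of sites did not use. Counts were compared with edgeR's quasi-likelihood test, with p-values adjusted by the Benjamini-Hochberg method over all 12910 genes tested and a threshold of 0.05, and levels are given as CPM, the usual counts-per-million scale, with library sizes scaled by TMM. Counts used per library ranged from 3808045 to 7063171, with the first library of each group the shallower. Xist RNA had 633 and 429 CPM (WT), 1.08 and 0.273 (line 1) and 0.969 and 0.282 (line 2). Smarca4 RNA had 600 and 498 CPM (WT), 526 and 418 (line 1) and 559 and 465 (line 2), and passed the test in neither line (adjusted p = 0.526 and 0.914). All 12 fibroblast markers were tested, with a summed level of 4553 to 7216 CPM. Summed levels of melanocyte and Schwann cell markers (4 of 8 tested, Dct at 0) were 66.5 and 63.6 CPM (line 1), 29.6 and 21.0 (WT) and 19.4 and 15.0 (line 2). Keratinocyte markers (3 of 7 tested, Krt1 at 0) summed to 48.5 and 49.9 CPM (WT), 11.4 and 9.55 (line 1) and 18.9 and 12 (line 2). Endothelial markers (3 of 5 tested) ranged from 10.4 to 12.4 CPM in WT and from 2.70 to 6.54 in the lines. Leukocyte markers (3 of 6 tested) ranged from 18.2 to 18.4 CPM in WT and from 26.2 to 29.8 in the lines, and adipocyte markers (1 of 4 tested) from 12.4 to 39.8 CPM over all libraries. The part of such cells in the results below was not tested. In bulk RNA, fewer cells of a type and less RNA per cell cannot be told apart.

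Of 139 host genes, 111 passed the filter on low counts (79.9%), and 388 of 455 sites lay in them. Among the 919 other X symbols, 304 passed it (33.1%). The tested host genes had a median WT level of 13.3 CPM per kb of transcript, against 11.4 for the 304 other X genes tested. Sites were also found in genes with hardly any RNA: 28 host genes were under 1 CPM in WT. Gpc3, with 16 sites, had 1.01 and 0.960 CPM (WT), 0.270 and 0.819 (line 1) and 0.969 and 1.27 (line 2). Chrdl1, an antagonist of bone morphogenetic proteins with 8 sites, had 0.758 and 1.12 CPM (WT), none (line 1) and 2.18 and 1.69 (line 2). Il13ra2 and Tlr7, whose starts lie inside sites, had at most 0.682 and 1.23 CPM in any library. Of the other genes with a start inside a site, Stag2 had a level of 29.5 CPM per kb in WT and Vegfd 20.7. Snora70 had 10.7 CPM per kb, uncertain because its reads cannot be told apart from those of Rpl10 around it.

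The 7 genes with 10 or more sites did not move together. Sh3kbp1 had 255 and 278 CPM (WT), 285 and 271 (line 1) and 204 and 223 (line 2), so that line 1 overlapped WT and line 2 lay below, and neither line passed the test (log2 fold change 0.06, SE 0.12, and -0.32, SE 0.12; adjusted p = 0.82 and 0.277). Arhgap6 had 5.81 and 8.64 CPM (WT), 65.4 and 65.1 (line 1) and 2.91 and 3.67 (line 2). It rose in line 1 (log2 fold change 3.14, SE 0.24, adjusted p = 0.000983) and was not called in line 2 (-1.13, SE 0.28, adjusted p = 0.106). Phex had 4.80 and 11.8 CPM (WT), 57.0 and 73.6 (line 1) and 4.60 and 11 (line 2). Its rise in line 1 passed the test (2.92, SE 0.50, adjusted p = 0.0133), while the line 2 libraries lay within the WT range or just below it.

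The other 4 of these 7 gave no call. Ammecr1 had 69.7 and 62.1 CPM (WT), 52.4 and 48.5 (line 1) and 68.6 and 64.6 (line 2) (adjusted p = 0.122 and 0.988). Clcn5 overlapped WT in both lines, with 72.8 and 81.9 CPM (WT), 69.2 and 102 (line 1) and 68.1 and 81.9 (line 2). Lancl3 had 10.4 and 16.0 CPM (WT), 19.2 and 40.5 (line 1) and 14.1 and 15.7 (line 2), and line 1 did not pass the test (1.18, SE 0.40, adjusted p = 0.107). Gpc3 was too low to be tested.

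In line 1, 19 of 111 host genes were called (17.1%), 7 higher and 12 lower, where the background over all genes tested is 14.3% and over the other X genes 14.5%. By direction the background is 6.75% higher and 7.55% lower. The median log2 fold change of host genes was 0.02, beside 0.01 over all genes tested. The share of host genes called in line 1 is near the background in this fit. It was 9 of 25 tested host genes with 5 or more sites (36.0%) and 10 of 86 with fewer (11.6%), a split chosen after the values were seen and given without a test. In line 2 the same split gave 1 of 25 (4%) and 7 of 86 (8.14%). Genes with 5 or more sites were longer (median span 127 kb against 44.4 kb) and had a similar level (median of 5.74 and 5.59 mean log2 CPM). The 19 calls became 6 without WT replicate 1, 9 without WT replicate 2 and 29 without line 1 replicate 1, and the 9 calls in genes with 5 or more sites became 3, 6 and 14.

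Besides Arhgap6 and Phex, the host genes that rose in line 1 came from several functions. Cask, a scaffold kinase of cell junctions and synapses with 7 sites, had 143 and 155 CPM (WT) and 324 and 269 (line 1; log2 fold change 0.99, SE 0.14, adjusted p = 0.00659). Usp11, a deubiquitinase with 1 site 840 bases from its start, rose from 18.9 and 19.4 CPM to 80.6 and 54.5 (1.81, SE 0.24, adjusted p = 0.00564). Syn1, a protein of synaptic vesicles with 5 sites, rose from 3.28 and 3.20 to 13.5 and 10.1 CPM (1.84, adjusted p = 0.0141). Amot, a regulator of the Hippo pathway with 5 sites, rose from 137 and 141 to 248 and 215 CPM (0.73, adjusted p = 0.0165). In each of these genes the line 1 libraries lay above both WT libraries. Gabra3, a subunit of the GABA receptor with 3 sites, was called higher from 3 WT counts against 24, which is 2.89 on the log2 scale (1.17 to 5.26, 95% counting interval). DESeq2 did not call this rise (adjusted p = 0.125). Gabra3 had 29 counts in line 2 against the same 3, or 3.14 (1.45 to 5.50), and was not called there.

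The genes that fell in line 1 also had several functions. Nrk, a kinase with 1 site, had 32.3 and 21.6 CPM (WT) and 0.270 and 0 (line 1), or 263 counts against 1. The ratio of counts was -8.15 on the log2 scale, with -13.46 and -5.66 as the bounds of its 95% counting interval. Nrk had 36.6 and 11.6 CPM in line 2. Col4a6 had 222 and 229 CPM (WT) and 44.1 and 36.2 (line 1; log2 fold change -2.50, SE 0.15, adjusted p = 0.000446). Gpc4, a relative of Gpc3 with 5 sites, had 203 and 144 CPM (WT) and 57.3 and 31.9 (line 1; -1.98, SE 0.32, adjusted p = 0.0112). Hs6st2, which adds sulphate to heparan sulphate and holds 7 sites, had 212 and 225 CPM (WT) and 120 and 112 (line 1; -0.91, SE 0.11, adjusted p = 0.0036). Vegfd, whose start lies inside a site, had 39.2 and 39.7 CPM (WT), 20.8 and 19.8 (line 1) and 33.4 and 30.6 (line 2). The fall in line 1 passed the test (-0.96, SE 0.16, adjusted p = 0.0127), and line 2 did not (-0.30, adjusted p = 0.486). Srpx, a secreted matrix protein (-2.01), the microtubule-binding Mid2 (-1.44), Mamld1 (-1.30), the choline pathway enzyme gene Pcyt1b (-0.52) and Tmem164 (-0.46) fell as well. DESeq2 did not call the fall of Mamld1 (adjusted p = 0.167) or of Pcyt1b (0.11). Klf8, a repressor of transcription, went from 27 counts to 3, which is -3.28 on the log2 scale (-5.65 to -1.58, 95% counting interval). The fall of Klf8 was called by edgeR (adjusted p = 0.0186) and not by DESeq2 (0.139).

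**Figure D4:**
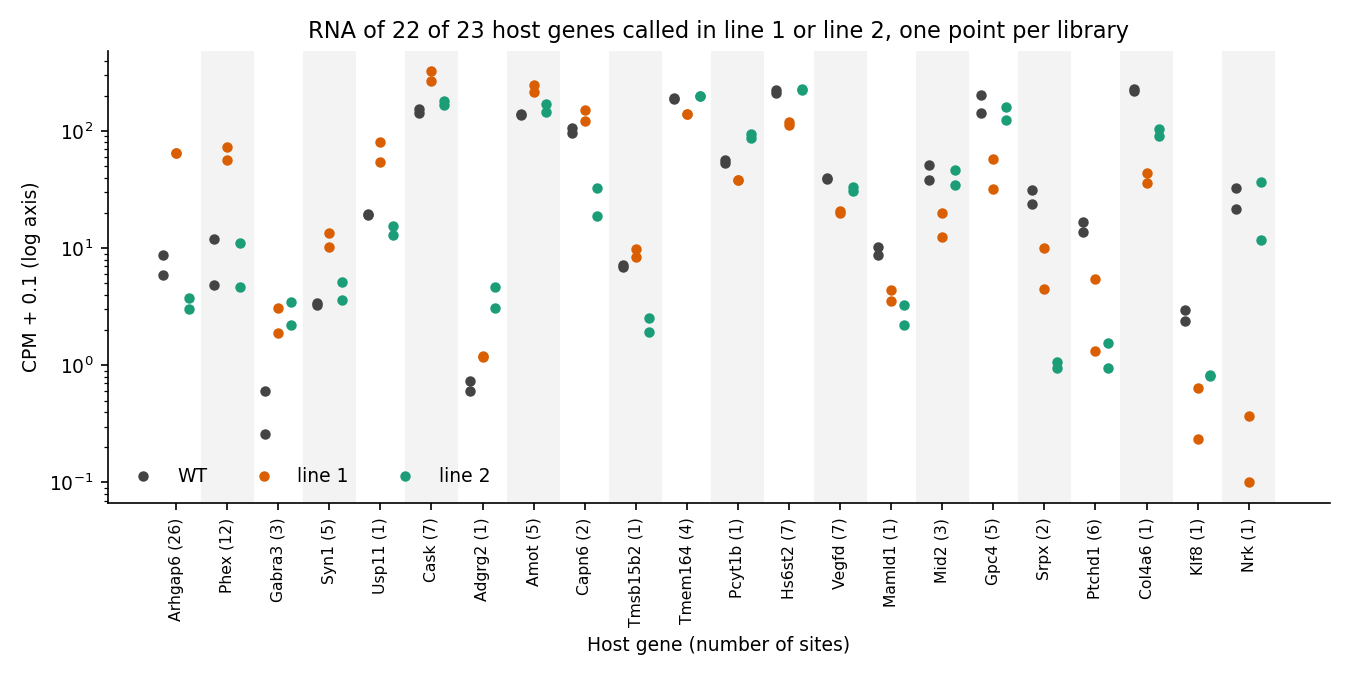
RNA of 22 of the 23 host genes called in line 1 or line 2, as CPM + 0.1 on a log axis, with 1 point per library and the number of sites in brackets, ordered by the log2 fold change of line 1. Arhgap6 and Phex stand above WT in line 1 and not in line 2, and Srpx, Mamld1 and Col4a6 lie below WT in both lines.

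In line 2, 8 of 111 host genes were called (7.21%), beside a background of 3.58% over all genes tested and 3.95% over the other X genes. Of the 8 called host genes 2 were higher and 6 lower, where the background is 1.73% higher and 1.85% lower. Adgrg2, an adhesion receptor, had 0.505 and 0.640 CPM (WT) and 4.60 and 2.96 (line 2; log2 fold change 2.61, SE 0.45, adjusted p = 0.038). Pcyt1b had 56.3 and 53.6 CPM (WT) and 94.2 and 87.6 (line 2; 0.73, SE 0.12, adjusted p = 0.038). Srpx had 23.7 and 31.2 CPM (WT) and 0.969 and 0.846 (line 2; -4.91, SE 0.51, adjusted p = 0.0107). Ptchd1, a membrane protein with 6 sites, had 13.6 and 16.8 CPM (WT) and 1.45 and 0.846 (line 2; -3.78, SE 0.68, adjusted p = 0.0428). Capn6, a calpain relative that stabilises microtubules, fell from 107 and 95.4 to 32.7 and 18.9 CPM (-2.0, SE 0.27, adjusted p = 0.0203). Mamld1 (-1.86), Tmsb15b2 (-1.73) and Col4a6 (-1.20) fell too; Tmsb15b2 shares sequence with its paralog Tmsb15l, so its value is uncertain. The count depended on single libraries: without WT replicate 1 or line 2 replicate 1 the count was 1, and without WT replicate 2 or line 2 replicate 2 it was 0. Both lines were compared with the same WT libraries. In line 2 the changes of Adgrg2 (adjusted p = 0.192), Tmsb15b2 (0.0845) and Mamld1 (0.0623) were not called by DESeq2. Those of Srpx, Ptchd1, Capn6, Col4a6 and Pcyt1b were called by both tools.

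The lines differed from each other at 24 host genes (21.6%), 11 higher and 13 lower in line 2, beside a background of 12.6% over all genes tested (6.87% higher and 5.76% lower) and 14.1% over the other X genes. Arhgap6 was lower in line 2 than in line 1 by a log2 difference of -4.28 (SE 0.26, adjusted p = 0.000587) and Phex by -3.01 (SE 0.50, adjusted p = 0.0126). Pcyt1b, called lower in line 1 and higher in line 2 by edgeR, differed by 1.25 (SE 0.13, adjusted p = 0.0025). Its fall in line 1 (edgeR adjusted p = 0.0443) was not called by DESeq2 (0.11) or by edgeR without the low-count filter (0.0821). The count of 24 became 9 without line 2 replicate 1 and 8 without line 2 replicate 2.

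Grouped by function, the X-linked genes of matrix, adhesion and cytoskeleton held the most sites. Of 44 listed genes 21 were host genes with 155 sites, led by Sh3kbp1, Arhgap6, Gpc3 and Chrdl1, and of 18 tested 2 rose (Arhgap6, Amot) and 4 fell (Col4a6, Srpx, Gpc4, Mid2) in line 1, with a median log2 fold change of -0.40. These 6 are 33.3% of the 18, beside the background of 14.3%, and the whole list, host gene or not, had 5 higher and 9 lower of 36 tested (38.9%). In line 2 Col4a6 and Srpx fell and none rose (11.1%, beside 3.58%). Of 40 regulators of chromatin and transcription 12 were host genes with 32 sites, among them the remodeler gene Atrx with 5 sites and the ubiquitin ligase gene Huwe1 with 3. In line 1, 2 of the 12 fell by edgeR, among them Klf8 (16.7%, near the background of 14.3%), and DESeq2 called 1 of the 12. Over the whole list, host gene or not, edgeR called 3 of 34 tested in line 1, all lower (8.82%). In line 2 edgeR called none of the 12, beside a background of 3.58%, while 2 had an unadjusted p under 0.05 and DESeq2 called 1. Atrx had 366 and 337 CPM (WT), 364 and 346 (line 1) and 398 and 332 (line 2), with every group overlapping. Huwe1 had adjusted p-values of 0.745 and 0.994 against WT.

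Against WT the remaining lists gave no calls among host genes, beside a background of 14.3% in line 1 and 3.58% in line 2. So few tested genes cannot show a lack of change. Over each whole list, host gene or not, line 1 calls were 10.8% of housekeeping, 23.8% of signalling and 10.5% of escape genes tested. The deleted gene Xist is on the escape list and is among the 2 escape genes called in line 1, both lower. Between the lines, 2 host genes of housekeeping (18.2%), 1 of signalling (20%) and 1 of escape (16.7%) were called, beside 12.6%. Of 40 genes of housekeeping metabolism 13 were host genes with 33 sites and 11 were tested. Clcn5, the polyamine enzyme gene Sms (5 sites), the monoamine oxidase gene Maoa (4) and the phosphorylase kinase subunit gene Phka2 (4) led this list. None of the 11 was called against WT by edgeR or DESeq2 (2 in line 1 and 1 in line 2 had an unadjusted p under 0.05 in edgeR). Maoa, for example, had 68.0 and 101 CPM (WT) and 30.0 and 58.7 (line 1; adjusted p = 0.197). Of 31 genes of signalling and growth 7 were host genes, with 9 sites, and none of 5 tested was called against WT by either tool (1 in each line had an unadjusted p under 0.05 in edgeR). Il13ra1, a receptor of interleukins 4 and 13 with 2 sites, and the DNA polymerase gene Pola1 with 1 had adjusted p-values of at least 0.399 against WT. Of 19 genes listed as escaping X inactivation, a list that does not come from these cells, 6 were host genes with 21 sites: Shroom4 (7 sites), Mid1 (5), Car5b (5), Bgn (2), Kdm6a and Enox2 (1 each). The authors' deposited table classes 5 of these 6 Monoallelic in all 4 comparisons and Kdm6a Biallelic. None of the 6 was called against WT by edgeR or DESeq2 (3 in line 1 and 0 in line 2 had an unadjusted p under 0.05 in edgeR), with the nearest being Car5b in line 1 (0.81, adjusted p = 0.0574). Mid1 differed between the lines (1.00 higher in line 2, SE 0.19, adjusted p = 0.0192), from 39.7 and 30.2 CPM in line 1 and 75.8 and 63.2 in line 2, with 54.3 and 54.9 in WT.

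Reads assigned to a parental allele were deposited for 205 X genes, of which 64 are host genes. In these the RNA came mostly from the cas allele: the median mus share, the percentage of allele reads from mus, lay between 0.458% and 1.40% in the 6 libraries. Pooled over the 64 genes the share was 3.28% and 3.73% (WT), 3.92% and 4.22% (line 1) and 3.34% and 3.80% (line 2), so line 1 lay above each WT library and line 2 overlapped WT. Without the reads of Sh3kbp1, a check added after the data were seen, the pooled share was 3.64% and 3.96% in line 1 and 3.32% and 3.79% in WT, which overlap. The median share was 0.458% and 1.30% in line 1 and 0.789% and 1.40% in WT. Over the other 141 genes the pooled share ran from 6.79% to 9.04%, while their median share ran from 0% to 1.43%. That median was below the host gene median in every library except the second of line 2, so the 2 measures differ in direction. By the classes of the authors' deposited table, 61 of the 64 host genes are Monoallelic in all 4 comparisons (95.3%) and 3 Biallelic, beside 125 (88.7%) and 16 of the other 141. The 3 are Morf4l2, a subunit of chromatin complexes, with 63.9% to 74.3% mus reads over the libraries, Kdm6a with 32.4% to 44.7%, and the cold-induced RNA-binding gene Rbm3 with 22.6% to 28.6%. These genes hold active-X BRG1 sites (2, 1 and 3) although RNA of both alleles was counted.

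Sh3kbp1, the gene with most sites, was the only host gene whose mus share was called in line 1, of 3 called among 205 genes (background 1.46%). Its mus reads were 4 of 199 and 7 of 326 in WT, or 2.01% (95% exact binomial interval 0.55% to 5.07%) and 2.15% (0.868% to 4.37%). In line 1 they were 23 of 223 and 41 of 383, or 10.3% (6.65% to 15.1%) and 10.7% (7.79% to 14.2%), and in line 2 they were 1.69% and 3.26%. The log2 odds of mus against cas rose by 2.44 (SE 0.43) in line 1, with an edgeR adjusted p of 2.72e-06, and the lines differed by -2.09 (SE 0.42, adjusted p = 0.000179), the 1 host gene called in that comparison, where the background is 0.976%. In line 2 none of 64 host genes was called by edgeR, beside a background of 0%; 2 had an unadjusted p under 0.05. Mid1 was nearest, with 1.25% and 2.48% mus reads (WT), 1.64% and 1.21% (line 1) and 9.65% and 9.55% (line 2). Its log2 odds were 2.32 higher (SE 0.69, adjusted p = 0.164), and the difference between the lines had an adjusted p of 0.0591. Among other genes with many sites the mus share lay between 2.27% and 5.80% in Ammecr1, between 0% and 2.94% in Clcn5 and between 0.615% and 1.81% in Cask. It reached 6.45% in Vegfd (2 of 31 reads in 1 line 1 library) and 10.8% in Lrch2, a gene with 6 sites (4 of 37 reads in 1 WT library). Binomial intervals cover counting error only, and reads of 1 PCR product are not independent.

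**Figure D5:**
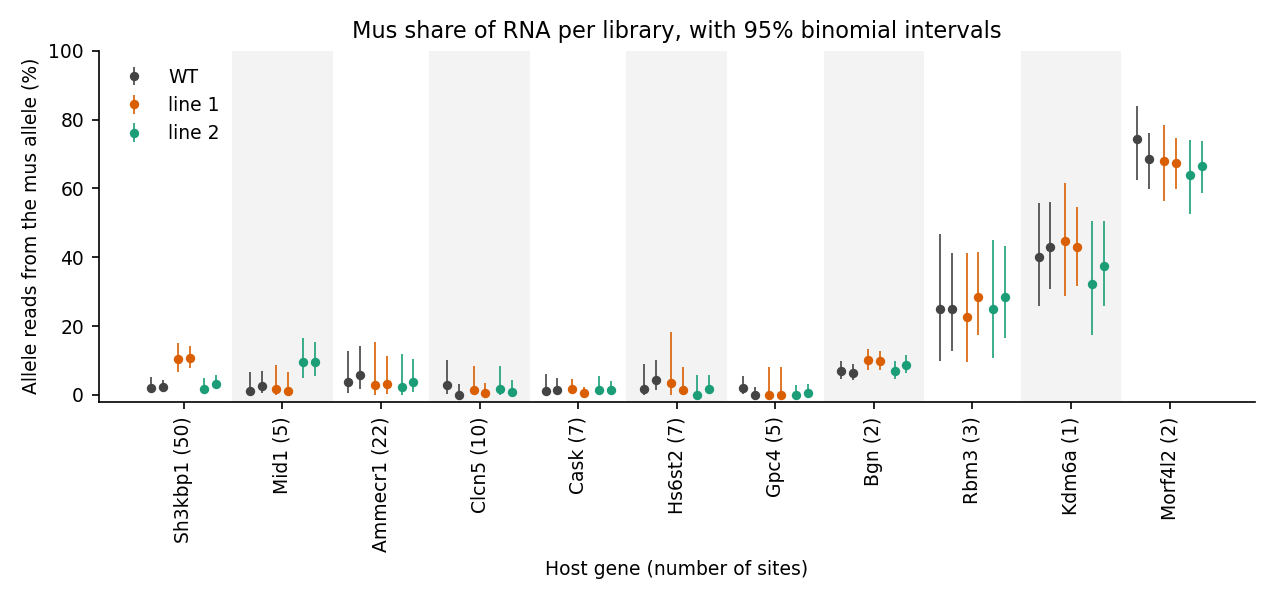
Share of allele reads from the mus allele in each library (points) with 95% exact binomial intervals (bars) for 11 host genes, with the number of sites in brackets. Sh3kbp1 stands at 10.3% and 10.7% in line 1 and Mid1 at 9.65% and 9.55% in line 2, while Rbm3, Kdm6a and Morf4l2 are above 20% in all libraries.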

How the data were processed

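Exon values per transcript are unnormalized expected counts, per the file headers. Allele values are expected counts as deposited by the authors, with 0.5 standing for 0. The authors' deposited mus fraction equals mus reads over allele reads and was recomputed here. The classifier scores the authors deposited per gene were not used. The authors' class per gene and their lists of sites are used as deposited; coordinates are mm10. The submitters' processing notes list, with no role stated, Novoalign 3.00.02, Bowtie2 2.2.7, TopHat2, MACS2 and HOMER among other tools. How the classes were called, like the strand setting of the counting, was not given in the sources used here. No genome was used, so exons and introns were not told apart.

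The design assumed counts, so values were rounded. The transcript with the highest total stood for each symbol. After filterByExpr, 12910 genes entered 1 fit over 6 libraries in edgeR 4.0.16 (R 4.3.3) with TMM scaling, a mean per group and 3 residual degrees of freedom. Mus and cas counts of 205 X genes with at least 10 allele reads in each library were fitted in edgeR with a library effect. Site positions were counted without a test. On simulated data the RNA fit called 64 of 100 genes changed by a log2 of 1 and 95 of 100 changed by 2, and 9 of 12710 unchanged genes. The mus fit called 23 of 40 genes with 8-fold odds. RNA counts were simulated with a spread set by level alone. They lacked the deviation that same-numbered libraries share, so rates in the data may differ. Replicate numbers are shared by the groups but stand for no stated pairing.

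Alternatives were DESeq2 1.42.0, its size factors, no filter, a replicate block, summed transcripts, the 2 compared groups alone, other allele minimums, other distances and overlaps, and leaving out each library. Where a group held 1 to 3 counts, the ratio is printed with its counting interval. Named genes were the 8 with most sites, in each line the 8 highest and 8 lowest changes among called host genes (mean log2 CPM 1 or more), called mus shares, up to 4 per list of 5 gene lists, and genes with a start inside a site; predicted genes were left out, and 3 genes that met these rules are not reported here. The sites, lists and rules were chosen with earlier results of these data known. Klf8, Hs6st2, Tmem164, Kdm6a, Enox2, Rbm3, Morf4l2, Pir, Acsl4, Gucy2f, Lrch2 and the sequences printed were chosen after their values were seen, since no site met the stated rule for sequences, a start together with an accessible site.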

Additional observations from a re-analysis of the deposited data

Results flagged for a closer look

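Line 2 and line 1 differed at 20 host genes named above for RNA and at 1 for the mus share, each by edgeR's test of the difference itself (adjusted p under 0.05). On the log2 scale, line 2 minus line 1, RNA was lower in line 2 for Arhgap6 (-4.28), Phex (-3.01), Srpx (-2.90), Capn6 (-2.42), Usp11 (-2.25), Tmsb15b2 (-2.13), Syn1 (-1.46), Cask (-0.76), Amot (-0.56) and Acsl4 (-0.52). It was higher in line 2 for Nrk (7.68, a fitted value that rests on 1 count in line 1), Adgrg2 (1.74), Gpc4 (1.70), Mid2 (1.31), Col4a6 (1.30), Pcyt1b (1.25), Mid1 (1.00), Hs6st2 (0.97), Vegfd (0.66) and Tmem164 (0.53). The log2 odds of the mus allele of Sh3kbp1 differed by -2.09.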

How the results depend on the processing

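For host genes called in line 1 (19), line 2 (8) and between the lines (24), leaving out 1 library gave 6 to 29, 0 to 1 and 8 to 28, where the lone library of a group is assumed to vary like the others. Replicate block fits gave 44, 17 and 41 (39.6%, 15.3% and 36.9% of host genes, beside 32.4%, 12.1% and 27.2% of all genes tested), and 2 for the mus share between the lines (1 without the block); same-numbered libraries deviated together (correlations of 0.54, 0.59 and 0.53), but the labels state no pairing. Without the filter line 2 gave 13 calls. Host genes with at least 2 sites gave 13, 3 and 15 calls. Of 48 calls on named genes 14 held under all alternatives run, among them Arhgap6, Nrk, Col4a6 and Usp11 in line 1 and the mus share of Sh3kbp1; no call changed its sign. Sites near a start numbered 36 within 1000 bases, 19 within 500 and 66 within 2500. Sites over an accessible site numbered 32, 2 if at least 50% of the site was covered and 103 within 1000 bases. The site count was 450 with at least 50% of the site in a gene. Added after the data were seen, it was 452 without Bc1, a row of several copies whose span covers other genes, and 405 without Sh3kbp1; RefSeq starts gave 31 sites within 1 kb.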
